A study of Mus musculus with 96 samples.

Results

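Pan-neuronal genes are active in nearly every kind of neuron and low in dividing progenitors. A panel of 35 of them, with products in the cytoskeleton, growth cone, axon surface, synaptic vesicle and nucleus, was followed in the developing mouse neural tube by RNA-seq and by ribosome profiling. The latter reads footprints, the short pieces of mRNA left after nuclease treatment because a ribosome covers them. The panel was taken by gene symbol. Its rule uses no measured value, but it was drawn up with earlier results of these data known. All 35 genes were found among the 22422 genes of the count table. For each gene the coding sequence of 1 transcript was used, the one with the highest total count, without its first 15 and last 5 codons. Wild-type embryos of strain C3HeB were compared with embryos that carry the Eif3c Xs-J allele over a wild-type copy on that background (labelled C3HeB/Eif3cXs-J/+), both at E11.5. The product of Eif3c is part of eIF3, a large complex that brings mRNA to the small ribosomal subunit. Neural tubes of 1 litter were pooled and dissociated, and the cells were divided between an RNA tube and a footprint tube. Each genotype had 3 pools, numbered 1, 2 and 3 here (TC1, TC5 and TC6 in the labels), so there were 12 libraries, each sequenced in 2 runs of 4 lanes. Whether these were 3 different litters is not stated in the labels, so p-values only reflect how far the pools were apart, which may be technical. Whole neural tubes are mixtures of progenitors, neurons and other cells, and in such bulk samples fewer neurons and less RNA per neuron cannot be told apart.

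As background, a newborn neuron builds an axon from microtubules made of neuronal tubulins, which are stabilised by microtubule-associated proteins such as MAP2, tau, MAP1B and doublecortin, and destabilised by stathmins. Neurofilament proteins later fill the axon, growth cone proteins steer it, and immunoglobulin-like adhesion molecules bind it to its path. Hu proteins (Elavl genes) bind AU-rich elements and favour neuronal mRNA stability and splicing, MYT1-type zinc finger proteins repress non-neuronal programmes, and NHLH basic helix-loop-helix factors mark neurons that have just been born.

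Promoters of 4 of the genes show the regulatory sequence at the start of the group. Gng3, Tagln3 and Ina are shown because they were among the 8 panel genes of smallest p in RNA and have a single promoter entry, and Nhlh2 because its RNA was not lower and its window holds both motifs searched. The windows run from 250 bases before to 50 bases after the transcription start and come from RefSeq (GRCm38.p6). They are Gng3 (chr19:8839197-8839496, minus strand), Tagln3 (chr16:45724482-45724781, minus strand), Ina (chr19:47014431-47014730, plus strand) and Nhlh2 (chr3:102009895-102010194, plus strand), each written 5′ to 3′ on the strand of the gene. Capitals mark matches, on either strand, to the E-boxes CAGCTG and CAGATG, the kind of site that proneural basic helix-loop-helix factors bind.
Gng3: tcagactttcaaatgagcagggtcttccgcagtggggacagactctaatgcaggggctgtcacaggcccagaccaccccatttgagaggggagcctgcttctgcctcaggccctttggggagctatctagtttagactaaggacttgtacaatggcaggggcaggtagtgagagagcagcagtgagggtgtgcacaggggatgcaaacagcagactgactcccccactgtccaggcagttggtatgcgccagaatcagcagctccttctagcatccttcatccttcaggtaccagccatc
Tagln3: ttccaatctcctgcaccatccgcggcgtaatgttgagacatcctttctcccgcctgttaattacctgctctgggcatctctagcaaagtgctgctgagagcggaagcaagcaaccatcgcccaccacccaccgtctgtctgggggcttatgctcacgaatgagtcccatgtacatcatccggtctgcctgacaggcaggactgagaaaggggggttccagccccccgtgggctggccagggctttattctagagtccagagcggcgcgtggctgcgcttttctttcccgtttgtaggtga
Ina: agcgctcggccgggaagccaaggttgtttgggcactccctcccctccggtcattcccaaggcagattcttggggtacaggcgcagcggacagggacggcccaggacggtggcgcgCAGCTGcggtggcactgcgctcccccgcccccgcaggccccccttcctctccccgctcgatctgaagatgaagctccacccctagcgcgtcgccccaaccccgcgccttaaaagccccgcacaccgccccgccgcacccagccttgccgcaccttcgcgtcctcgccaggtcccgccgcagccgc
Nhlh2: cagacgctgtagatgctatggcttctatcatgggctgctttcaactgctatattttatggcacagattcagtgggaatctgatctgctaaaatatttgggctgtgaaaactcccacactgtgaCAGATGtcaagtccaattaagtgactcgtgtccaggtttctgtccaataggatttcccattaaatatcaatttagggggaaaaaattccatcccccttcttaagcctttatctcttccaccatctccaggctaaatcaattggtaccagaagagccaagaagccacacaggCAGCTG
In the Gng3 and Tagln3 windows neither motif was found, while the Ina window had 1 match at base 116 and the Nhlh2 window had 2, at bases 124 and 295. Of the 35 genes, 25 had at least 1 promoter entry, 44 entries in all, some of which overlap. A match to either motif stood in 20 of the 44 entries, from 12 genes, against 30.6% of all 32817 promoter windows of the same length. CAGCTG, which reads the same on both strands, was in 11 of the 44 (16.3% of all windows) and CAGATG in 13 (17.2% of all windows). These matches are descriptions of letters in the windows and not sites.

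Coding counts ran from 7200317 to 13137404 in the RNA libraries, from 17278727 to 59202839 in wild-type footprint libraries and from 11310847 to 14842438 in mutant footprint libraries. Values are given in CPM, counts scaled to the size of the library with TMM factors within each assay. Eif3c checked the labels. Its RNA was 518, 497 and 474 CPM in wild-type pools 1, 2 and 3 and 296, 289.8 and 302 CPM in the mutant pools, and its footprints were 760.2, 739.9 and 743 CPM and 403, 355 and 379 CPM. Both sets of pools were apart in both assays (log2 differences -0.75 ± 0.062 in RNA and -0.98 ± 0.071 in footprints, SE, edgeR adjusted p = 0.000615 and 0.00131). All 20 neural progenitor genes and 31 genes of spinal neuron classes were tested in RNA. So were all 12 erythroid and 10 endothelial genes, so being tested does not check the labelled tissue. In RNA the progenitor genes summed to 6053 to 6915 CPM, 14 genes of mesenchyme and somites to 618 to 1061 CPM and the erythroid genes to 2753 to 6504 CPM. In mutant pool 1 the erythroid sum (6504 CPM) was above that of the progenitor genes (6109 CPM).

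All 35 genes were detected in every library and passed the low-count filter in both assays. Summed over the panel, RNA was 15878, 16312 and 15896 CPM in wild-type pools 1, 2 and 3 and 12381, 14874 and 13621 CPM in the mutant pools. Footprints summed to 26543, 27411 and 28973 CPM and 23896, 24988 and 22205 CPM. In both assays all 3 mutant sums lay below all wild-type sums, and mutant pool 2 was the highest of the mutant sums. The microtubule genes made up the largest part of the RNA sum, 7559 to 7722 CPM in wild type, and the pair for signalling and protein turnover the smallest, 325 to 343 CPM.

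Levels per length are given as CPM per kilobase of counted coding sequence. In wild-type RNA the highest was Tubb3 (chromosome 8, 123411424 to 123422015, plus strand), the neuronal beta-tubulin, at 1201, 1211 and 1223 CPM per kilobase in pools 1, 2 and 3 and 1054, 1095 and 961 in the mutant pools. Stmn2, a stathmin of growth cones, followed at 855, 820.1 and 812 and 654, 809 and 665. Crmp1, a collapsin response mediator, stood at 574, 586 and 583 and 408, 520.2 and 428. The ranges of Tubb3, Stmn2 and Crmp1 in wild type were apart from each other. Tagln3, a calponin-like protein of neurons, was at 526, 511 and 517 and 423, 456 and 417, and in wild type its lowest pool lay just above the highest pool of Ina (506, 511 and 507). Dpysl3, next in order (505 ± 20.1, SD, n = 3), overlapped both. Reads of tubulins can fit several paralogs, and how the authors assigned such reads is not given in the sources used here, so the Tubb3 level is uncertain.

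The lowest RNA levels per length belonged to a transcription factor, a splicing factor and 2 vesicle proteins. Myt1l, a zinc finger repressor of non-neuronal genes, was at 20.0, 20.4 and 21.9 CPM per kilobase in wild type and 9.64, 17.4 and 12.7 in the mutant. Rbfox3, the splicing factor known as NeuN, a marker of mature neurons, was at 21.5, 25.1 and 21.9 and 15.5, 21.7 and 17.4. Syt1, the calcium sensor of vesicle release, was at 27.4, 24.7 and 25.0 and 13.9, 25.9 and 16.6. Syp, the vesicle membrane protein synaptophysin, was at 45.7, 47.7 and 45.2 and 33.2, 40.1 and 32.9. In wild type the range of Rbfox3 overlapped those of Myt1l and Syt1, and Syp lay above all 3. Between these ends, wild-type levels of the Hu genes were 307 ± 8.66 (Elavl3), 222 ± 10.9 (Elavl4) and 133 ± 1.30 (Elavl2) CPM per kilobase (SD, n = 3). On the footprint scale, Tubb3 (2053 ± 89.2) and Stmn2 (1539.7 ± 34.1) again led, and Myt1l was last (7.57 ± 0.772 CPM per kilobase).

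The first comparison asked how RNA of these genes differed between genotypes. RNA was lower in the mutant for most of the panel by modest amounts. Across the panel 33 of 35 log2 differences (mutant minus wild type) were below 0, where 46.8% of all 13406 genes tested were, and the median was -0.27 against 0.013 over all genes. One gene passed an adjusted p of 0.05, Gng3, where 0.164% of all genes were called lower (52 genes were called in either direction, 0.388%). All 3 mutant pools lay below all wild-type pools for 22 of the 35, where 11.0% of all genes did so, and the reverse was seen for none (11.2% of all genes). An unadjusted p under 0.05 with a lower level was reached by 26 of the 35 (9.23% of all genes), and with a higher level by 0 (8.3% of all genes). Nefm, a neurofilament subunit, and Nhlh2 were the 2 genes not below 0, with log2 differences of 0.0038 ± 0.085 and 0.056 ± 0.08.

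**Figure D1:**
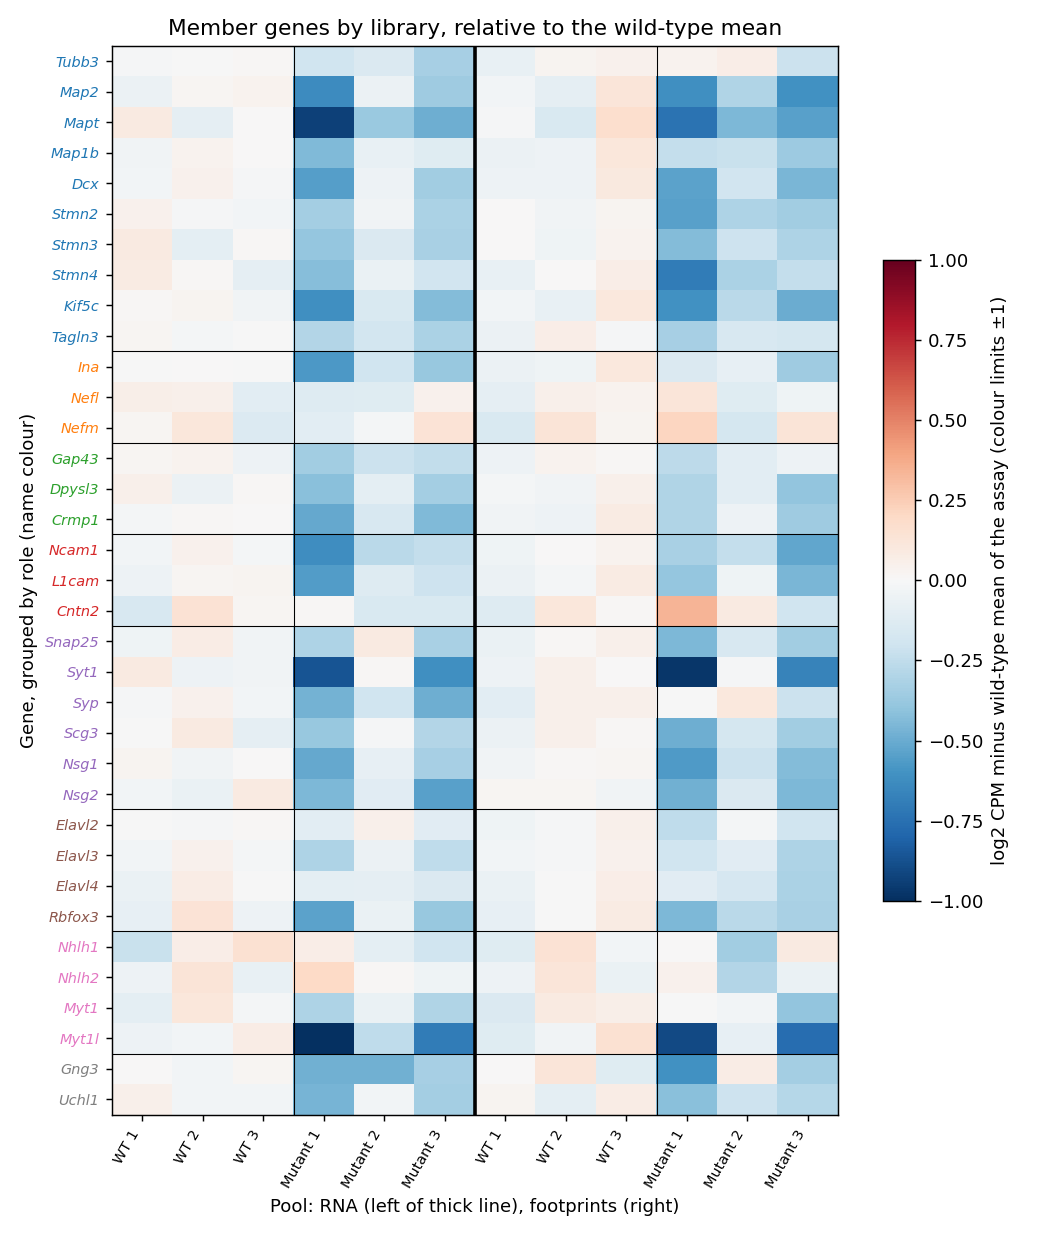
Colour gives log2 CPM of each of the 35 genes in each of the 12 libraries minus the wild-type mean of that assay, with genes in rows grouped by role and pools in columns (RNA left, footprints right). Mutant pools 1 and 3 are blue in most rows, mutant pool 2 is paler, and Nefl, Nefm, Cntn2, Nhlh1 and Nhlh2 show no common direction in the mutant pools of both assays.

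Gng3 (chromosome 19, 8836933 to 8839194, minus strand), the gamma subunit of a heterotrimeric G protein of neurons, had RNA of 46.8, 45.8 and 47.4 CPM in wild-type pools 1, 2 and 3 and 33.3, 33.2 and 36.9 CPM in the mutant pools. The 3 mutant pools lay together below all wild-type pools (edgeR, log2 difference -0.44 ± 0.082, adjusted p = 0.0499). The call stands at the edge of the threshold. With RLE size factors the adjusted p was 0.0535, and with an offset for coding GC content it was 0.117. Of 19 alternatives, 7 kept the call. Leaving out single pools gave adjusted p from 0.0666 (without mutant pool 1) to 0.257 (without wild-type pool 3), except that without mutant pool 2 it was 0.0105. The log2 difference of Gng3 kept its sign and lay between -0.49 and -0.41 in all alternatives tried.

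The other 7 genes of smallest p in RNA did not pass, with edgeR adjusted p from 0.058 to 0.0766, although none had overlapping groups. Mapt (chromosome 11, 104231390 to 104332090, plus strand), which encodes the axonal microtubule protein tau, had 138, 122 and 129.7 CPM in wild-type pools 1, 2 and 3 and 67.4, 100.0 and 92.3 CPM in the mutant pools (log2 difference -0.59 ± 0.12). Mutant pool 1 was the lowest and mutant pool 2 the highest of the mutant pools. Gap43 (chromosome 16, 42248442 to 42340651, minus strand), a growth cone protein, had 210.5, 213 and 200.5 CPM in wild type against 164, 179 and 175 CPM in the mutant (-0.27 ± 0.061). Tagln3 (chromosome 16, 45711230 to 45724608, minus strand) had 284, 276 and 279 CPM in wild type against 228, 246 and 225 CPM in the mutant (-0.26 ± 0.06). For both, the spread between mutant pools was narrow and the gap to wild type small. Ina (chromosome 19, 47014698 to 47025327, plus strand), the intermediate filament protein alpha-internexin, had 732, 738 and 733 CPM in wild type against 492, 639.6 and 566 CPM in the mutant (-0.38 ± 0.087). Myt1l (chromosome 12, 29528384 to 29923213, plus strand) had 70.2, 71.6 and 76.7 CPM in wild type against 33.8, 60.9 and 44.7 CPM in the mutant (-0.66 ± 0.16), the most negative difference of the panel. Crmp1 (chromosome 5, 37241940 to 37292133, plus strand) had 1149, 1173 and 1166 CPM in wild type against 817, 1041 and 856 CPM in the mutant (-0.36 ± 0.088). Ncam1 (chromosome 9, 49502136 to 49798925, minus strand), the neural cell adhesion molecule, had 454, 475 and 457 CPM in wild type against 301, 384 and 392 CPM in the mutant (-0.37 ± 0.091). In Ina, Myt1l, Crmp1 and Ncam1 the lowest value was that of mutant pool 1.

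By role, the 10 genes of microtubules and their partners all had log2 differences below 0 in RNA, 9 of them with no overlap between genotypes (Stmn4 overlapped), with a median of -0.27. Beside Mapt and Tagln3 they were the kinesin motor Kif5c (-0.39 ± 0.10), the dendritic protein gene Map2 (-0.33 ± 0.11), the migration gene Dcx (-0.31 ± 0.10), the axonal Map1b (-0.20 ± 0.10) and Tubb3 (-0.22 ± 0.072). The stathmins stood close together at -0.28 ± 0.076 (Stmn3), -0.23 ± 0.10 (Stmn4) and -0.23 ± 0.081 (Stmn2). None of these 8 genes passed. The growth cone gene Dpysl3 was at -0.28 ± 0.086, near Gap43. Among adhesion molecules L1cam was at -0.29 ± 0.095 and Cntn2, an early axonal adhesion protein, at -0.10 ± 0.083 with overlapping groups.

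The 3 filament genes differed in value. Ina stood at -0.38 ± 0.087 in RNA, while Nefl, the light subunit, had 773, 767 and 689.9 CPM in wild type against 681, 684 and 765 CPM in the mutant (-0.067 ± 0.074) and Nefm, the medium subunit, had 971, 1034 and 870.3 CPM in wild type against 889, 943 and 1052 CPM in the mutant. The pools of Nefl and Nefm overlapped between genotypes, and mutant pool 3 was their highest mutant pool. Nefl coding exons overlap an annotated Nefm transcript on the opposite strand, and Ina overlaps Nt5c2, so reads of these pairs cannot be told apart where counting ignores strand, which the sources used here do not state. The same holds for Ncam1 with Gm11149 and Uchl1 with Uchl1os, and Elavl3 overlaps Gm49318 on its own strand.

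Genes of synaptic and secretory vesicles were all below 0 in RNA, with 3 of 6 free of overlap. Values were Syt1 (-0.46 ± 0.18), Syp (-0.39 ± 0.10), Nsg2 (-0.36 ± 0.10), Nsg1 (-0.30 ± 0.093), Scg3 (-0.23 ± 0.091) and Snap25 (-0.18 ± 0.12). Syt1, Snap25, which encodes a SNARE of vesicle fusion, and Scg3, a secretogranin of dense-core granules, overlapped through mutant pool 2. Syt1 had 33.0, 29.8 and 30.2 CPM in wild type against 16.8, 31.2 and 20.0 CPM in the mutant. Snap25 had 35.5, 38.4 and 35.6 CPM in wild type against 29.3, 38.9 and 29.0 CPM in the mutant. In both genes mutant pools 1 and 3 lay below all wild-type pools. Of the RNA-binding proteins, Rbfox3 (-0.34 ± 0.13) and Elavl3 (-0.20 ± 0.072) were lower than Elavl4 (-0.11 ± 0.061) and Elavl2 (-0.056 ± 0.064) in point estimate, and the differences between these genes were not tested. The transcription factors split, with Myt1l at -0.66 ± 0.16, Myt1, its paralog, at -0.22 ± 0.082, and the NHLH factors near 0. Nhlh1 had 33.7, 41.3 and 43.9 CPM in wild type against 41.2, 36.8 and 34.2 CPM in the mutant (-0.08 ± 0.11). Nhlh2 had 124, 140.0 and 122 CPM in wild type against 148, 129 and 125 CPM in the mutant. Uchl1, a deubiquitinase abundant in neurons, was at -0.27 ± 0.10.

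**Figure D2:**
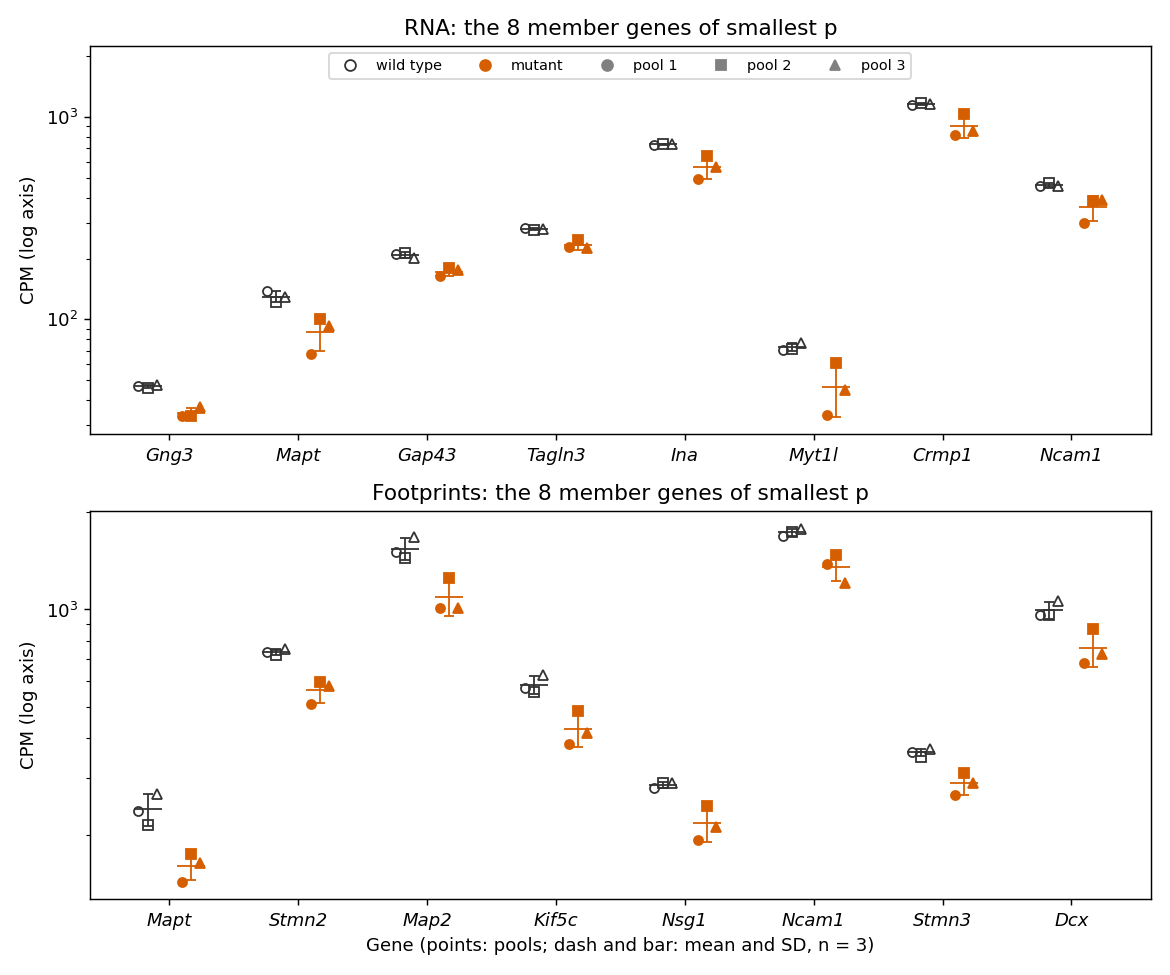
CPM on a log axis of the 8 panel genes of smallest p in RNA (top) and in footprints (bottom), with 1 point per pool (open, wild type; filled, mutant; shape, pool number) and dashes and bars for mean and SD of 3 pools. No gene shown has overlapping genotypes, and in RNA mutant pool 1 is the lowest for all but Gng3, where pool 2 is slightly lower, and Tagln3, where pool 3 is.

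The pools of the mutant differed from each other. Relative to the wild-type mean, the median log2 level of the 35 genes in RNA was -0.43, -0.10 and -0.32 in mutant pools 1, 2 and 3, where the wild-type pools were at -0.013, 0.023 and -0.003. Mutant pool 2 was thus nearest to wild type, although 31 of its 35 genes were still below the wild-type mean. Without that pool, which left 2 mutant pools, 27 of the 35 genes passed in RNA, with 1522 genes called in all, and without any other single pool 0 or 1 did. The median of the panel ranged from -0.36 to -0.20 over these fits. Without mutant pool 1 the gene called was Mapt. DESeq2 called 13 of the 35 (394 genes in all), limma-voom 2, and with no filter on low counts 12 were called (462 genes). With a GC offset 0 were called and 2 genes in all, with the panel median at -0.25.

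A second list of 69 pan-neuronal genes, none of them in the panel, was tested beside it in RNA. Like the panel, this list was chosen with earlier results of these data known. Of its genes, 0 passed in either direction by edgeR (27 by DESeq2, 3 by limma-voom, which both called more of all genes too). An unadjusted p under 0.05 was reached by 49 with a lower level (9.23% of all genes) and by 0 with a higher one (8.3%). Below 0 were 64 (46.8% of all genes), and for 41 all mutant pools lay below wild type (11.0% of all genes). The median was -0.30. The 6 of smallest p were Apc2 (-0.44 ± 0.083), Robo2 (-0.69 ± 0.14), Pcsk1n (-0.62 ± 0.13), Cdk5r1 (-0.50 ± 0.11), Celf4 (-0.58 ± 0.12) and Dclk1 (-0.48 ± 0.11), with edgeR adjusted p from 0.0501 to 0.0632. Apc2 and Dclk1 bind microtubules, Robo2 is an axon guidance receptor and Cdk5r1 activates the kinase CDK5.

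Markers of other cells were measured beside the panel. The 16 genes of cycling cells were all above 0 in RNA (median 0.28, 10 with all mutant pools above wild type, 1 called by edgeR and 8 by DESeq2, led by the mitotic kinase gene Aurka at 0.48 ± 0.075), and their sums were 4176, 4149.9 and 3900.5 CPM in wild type and 4927, 4529 and 5311 CPM in the mutant. The lowest of these mutant sums was again that of pool 2. Neural progenitor genes were called in neither direction by edgeR, DESeq2 or limma-voom (20 genes, 2 higher and 2 lower at an unadjusted p under 0.05, 9 above and 11 below 0, median -0.067), with sums of 6759, 6761 and 6509 CPM and 6109, 6053 and 6915 CPM. Genes of spinal neuron classes, 31 of them, had a median of -0.16, with 0 called by edgeR and 5 by DESeq2. Of these, 25 were below 0 and 6 above. At an unadjusted p under 0.05, 10 were lower (9.23% of all genes) and 1 was higher (8.3% of all genes). The lower ones were led by the transcription factor genes Pax2 (-0.58 ± 0.12), Pax8 (-0.67 ± 0.16) and Lbx1 (-0.47 ± 0.12). Genes of sensory and sympathetic ganglia summed to 351, 361 and 363 CPM and 289, 335 and 327 CPM. Erythroid genes summed to 2753, 3411 and 3318 CPM and 6504, 3441 and 2868 CPM, and endothelial genes to 446, 429.6 and 395 CPM and 634, 380.2 and 386 CPM, both highest in mutant pool 1. One erythroid gene, Hbb-bt, was called. All 12 erythroid and 10 endothelial genes were detected. All 12 erythroid genes were above 0 (median 0.49), with 5 higher and 0 lower at an unadjusted p under 0.05. Of the endothelial genes 9 were above 0 and 1 below (median 0.15), with 0 in either direction at that p. Beside these sums, the panel medians were -0.43, -0.10 and -0.32 in mutant pools 1, 2 and 3. Macrophage genes summed to 59.5 to 88.1 CPM and the 7 neural crest and Schwann cell genes to 327 to 376 CPM over the 6 libraries. The part of these cells in the lower neuronal RNA was not tested.

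Footprints of the panel were lower in the mutant by about as much as RNA, and no gene passed. The median log2 difference was -0.28 against 0.014 over the 13423 genes tested. Of the 35 genes, 33 were below 0 (47.6% of all genes) and 22 had all mutant pools below wild type (14.8% of all genes). By edgeR 0 passed the adjusted threshold (0.0298% of all genes were called lower, 0.253% in either direction), 23 had an unadjusted p under 0.05 with a lower level (11.1% of all genes) and 0 with a higher one. DESeq2 called 14 of the 35 and limma-voom 3, Map2, Mapt and Stmn2. Both tools also called more of all genes than edgeR did, as the last section gives. Without mutant pool 2, 24 were called (2333 genes in all), and without any other single pool 0 were. Relative to the wild-type mean, the panel's median footprint level was -0.33, -0.16 and -0.35 in mutant pools 1, 2 and 3 and -0.052, 0.0033 and 0.05 in wild type, so pool 2 was again nearest to wild type.

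The 8 genes of smallest p in footprints included 6 of the microtubule group, and none had overlapping genotypes. Mapt footprints were 237, 215 and 269 CPM in wild-type pools 1, 2 and 3 and 144, 175 and 164 CPM in the mutant pools (-0.58 ± 0.10, edgeR adjusted p = 0.0537). Stmn2 (chromosome 3, 8509360 to 8561606, plus strand) had 741, 722 and 754 CPM in wild type against 508, 596 and 581 CPM in the mutant (-0.40 ± 0.078). Map2 (chromosome 1, 66175273 to 66442583, plus strand) had 1509.9, 1446 and 1677 CPM in wild type against 1009, 1250.5 and 1013 CPM in the mutant (-0.50 ± 0.10). In all 3 genes mutant pool 2 was the mutant pool closest to wild type. Kif5c (chromosome 2, 49619298 to 49774778, plus strand) had 571, 553 and 625 CPM in wild type against 382, 484 and 413 CPM in the mutant (-0.45 ± 0.10). Nsg1 (chromosome 5, 38137192 to 38159907, minus strand), an endosomal protein of neurons, had 279.6, 289 and 290.0 CPM in wild type against 194, 247 and 212 CPM in the mutant (-0.40 ± 0.09). Ncam1 had 1686, 1737 and 1778 CPM in wild type against 1383, 1470.0 and 1212 CPM in the mutant (-0.36 ± 0.083). For Ncam1 mutant pool 3 was the lowest, not pool 1. Stmn3 (chromosome 2, 181306459 to 181314500, minus strand) had 361, 350.2 and 369.9 CPM in wild type against 266, 312 and 290.2 CPM in the mutant (-0.32 ± 0.075). Dcx (chromosome X, 143855842 to 143933311, minus strand) had 961, 959 and 1065 CPM in wild type against 684, 872 and 726 CPM in the mutant (-0.39 ± 0.10). The edgeR adjusted p of the last 7 ran from 0.0686 to 0.0934.

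The remaining genes of the microtubule group had footprint differences of Stmn4 (-0.41 ± 0.11), Map1b (-0.28 ± 0.079), Tagln3 (-0.22 ± 0.073) and Tubb3 (-0.032 ± 0.088). Tubb3 footprints overlapped, at 2523, 2708 and 2734 CPM in wild type against 2725, 2779 and 2288 CPM in the mutant, although its RNA did not. Ina was at -0.19 ± 0.089 without overlap, while Nefl (-0.015 ± 0.083) and Nefm (0.06 ± 0.11) overlapped as in RNA. Growth cone genes had differences of Dpysl3 (-0.26 ± 0.085), Crmp1 (-0.23 ± 0.092) and Gap43 (-0.14 ± 0.074), each without overlap. L1cam was at -0.28 ± 0.11 and Cntn2 at 0.091 ± 0.13, both with overlap. Cntn2 had 783, 925 and 864 CPM in wild type against 1085, 911 and 744 CPM in the mutant, 1 mutant pool lying above wild type. Vesicle genes had differences of Syt1 (-0.50 ± 0.19), Nsg2 (-0.35 ± 0.093), Scg3 (-0.33 ± 0.086), Snap25 (-0.32 ± 0.089) and Syp (-0.033 ± 0.094). Syp footprints overlapped between genotypes, at 75.2, 84.0 and 83.8 CPM in wild type against 80.6, 87.3 and 69.6 CPM in the mutant. RNA-binding proteins had differences of Rbfox3 (-0.35 ± 0.10), Elavl3 (-0.21 ± 0.071), Elavl4 (-0.20 ± 0.076) and Elavl2 (-0.16 ± 0.077), and transcription factors of Myt1l (-0.55 ± 0.20), Myt1 (-0.13 ± 0.11), Nhlh2 (-0.10 ± 0.10) and Nhlh1 (-0.073 ± 0.12), with overlap in all 4 factors. Gng3 footprints, unlike its RNA, overlapped, at 67.9, 73.5 and 62.1 CPM in wild type against 44.2, 71.3 and 53.5 CPM in the mutant (-0.27 ± 0.15), mutant pool 2 lying within the wild-type range. Uchl1 was at -0.30 ± 0.08 without overlap.

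In the list of 69 other pan-neuronal genes the median footprint difference was -0.28, and 63 were below 0 (47.6% of all genes). By edgeR 0 passed (24 by DESeq2, 4 by limma-voom). At an unadjusted p under 0.05, 43 were lower (11.1% of all genes) and 2 higher (11.7% of all genes). Among those of smallest p were Chgb (-0.41 ± 0.08), Dclk1 (-0.48 ± 0.10), Robo2 (-0.72 ± 0.15), Scg5 (-0.84 ± 0.18) and Syt11 (-0.29 ± 0.064), with edgeR adjusted p from 0.0684 to 0.0794. Chgb and Scg5 act in dense-core granules, and Syt11 in vesicle traffic. Footprints of cycling cell genes had a median of 0.23 (15 of 16 above 0, 1 called, the cyclin gene Ccnb1 at 0.63 ± 0.084), and of progenitor genes 0.059 (0 of 20 called by edgeR, 2 by DESeq2). Erythroid footprints summed to 8699, 8971 and 9913 CPM in wild type and 14272, 8892 and 8131 CPM in the mutant, again highest in mutant pool 1 (median difference 0.24, 1 of 12 called by edgeR, Hba-a2, and 4 by DESeq2). Mesenchyme and somite footprints summed to 1182, 1186 and 1375 CPM in wild type and 2115, 1450.0 and 1343 CPM in the mutant. Of these 14 genes 13 were above 0 (median 0.34), with 5 higher at an unadjusted p under 0.05 and 0 called by edgeR, 2 by DESeq2 and 0 by limma-voom. Endothelial footprints summed to 496, 582 and 501 CPM and 828, 461 and 511 CPM, with all 10 genes above 0 (median 0.15), 2 higher at an unadjusted p under 0.05 and 0 called by edgeR, against 1 by DESeq2 and limma-voom, Egfl7. The part of these cells in the footprint differences was not tested.

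**Figure D3:**
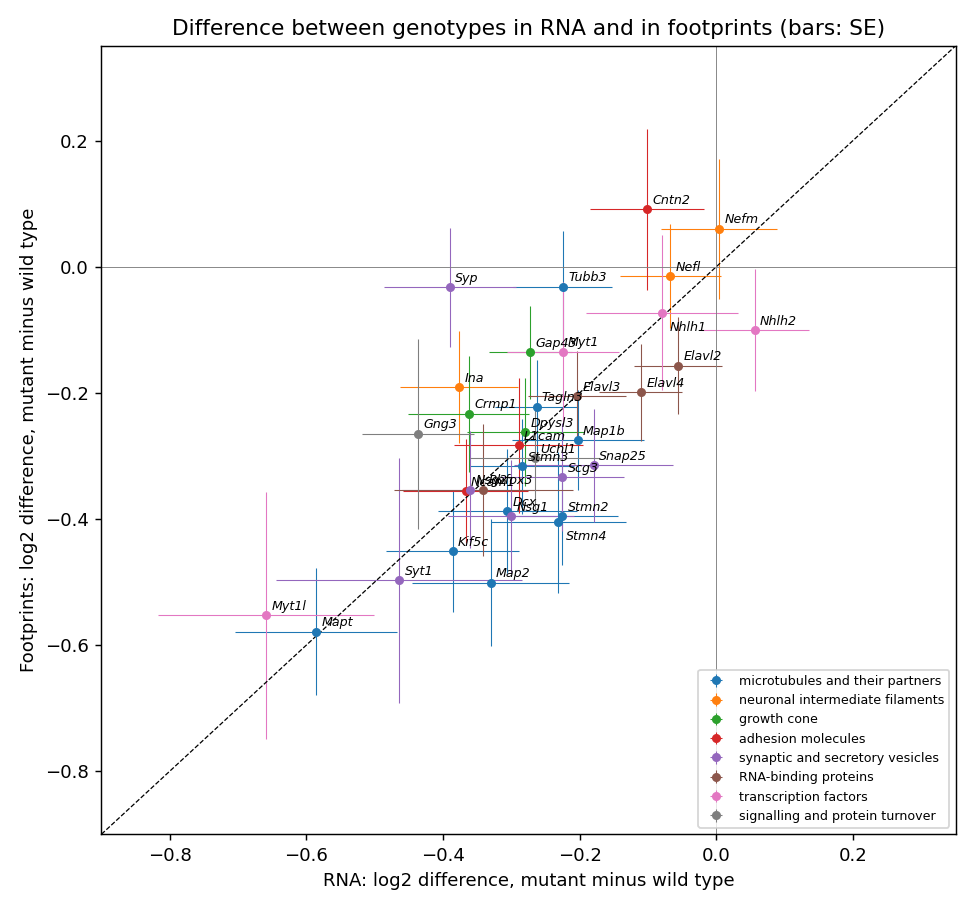
Each point is 1 panel gene, with its log2 difference (mutant minus wild type) in RNA on the x axis and in footprints on the y axis, bars for SE, colour for role and a dashed line for equal differences. Most genes lie below 0 on both axes and near the line, with Myt1l and Mapt lowest and Syp, Tubb3 and Cntn2 above the line.

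Translational efficiency, the ratio of footprints to RNA, was then compared between genotypes by an interaction term (genotype by assay) fitted to the 12 libraries. No panel gene passed, and the efficiencies of the panel centred on 0. The median log2 difference was 0.019, the same to 2 decimals as over all 13877 genes tested, with 20 genes above 0 and 15 below (46.1% of all genes were below). By edgeR 0 of the 13877 genes were called (0.0%), 801 (5.77%) having an unadjusted p under 0.05 with a higher and 565 (4.07%) with a lower ratio. With the pool as a block, which the shared cells of the RNA and footprint tubes allow, 113 genes were called (71 higher, 42 lower), and DESeq2 called 20 and limma-voom 0. None of these was in the panel, and 0 panel genes were called under any of the 19 alternatives. In the fit without the block, which does not use the pairing of RNA and footprints by pool, standard errors of single panel genes ran from 0.093 (Tagln3) to 0.31 (Syt1). Differences of that size were not detectable in that fit. In simulated counts of all 22422 genes at these depths, 40 of 100 genes with a 1.5-fold change in efficiency were recovered and 93 of 100 with a 2-fold change. The simulation gave all genes 1 common spread, drew libraries independently and changed only better counted genes. Its rates may therefore not hold for the real pools.

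Efficiencies per pool are log2 ratios of footprints to RNA scaled over all 12 libraries, so they differ slightly from ratios of the CPM above. Syp was the panel gene of smallest p, and the only one with an unadjusted p under 0.05 (p = 0.017, edgeR adjusted p = 0.431). Its log2 ratios were 0.97, 1.08 and 1.16 in wild type and 1.57, 1.38 and 1.34 in the mutant, with all mutant pools above wild type (difference 0.37 ± 0.14). Tubb3 had 0.79, 0.89 and 0.89 in wild type and 1.14, 1.07 and 0.98 in the mutant (0.21 ± 0.12), also without overlap. Gap43 had 0.92, 1.00 and 1.07 in wild type and 1.13, 1.12 and 1.20 in the mutant (0.15 ± 0.10), without overlap. Ina, Stmn2 and Cntn2 had overlapping genotypes. Ina had 0.92, 0.93 and 1.09 in wild type and 1.46, 1.10 and 1.01 in the mutant (0.20 ± 0.14), and its difference was -0.037 with a GC offset. Stmn2 had 0.94, 0.97 and 1.05 in wild type and 0.83, 0.72 and 0.96 in the mutant (-0.16 ± 0.12). Cntn2 had 0.94, 0.89 and 0.91 in wild type and 1.29, 1.16 and 0.87 in the mutant (0.21 ± 0.17). In Ina and Cntn2, mutant pool 1 was the highest of the 6 pools. Nhlh2 had -0.12, -0.11 and -0.093 in wild type and -0.22, -0.41 and -0.13 in the mutant (-0.14 ± 0.13). Crmp1 had 0.47, 0.44 and 0.58 in wild type and 0.74, 0.61 and 0.59 in the mutant (0.14 ± 0.14). These 2 genes did not overlap, and the gap was narrow in both. All genes named so far for efficiency were picked as those of smallest p in the panel. The share of all genes without overlap in efficiency was not computed. The separations between genotypes given here are therefore descriptions only. The other 27 panel genes had differences from -0.16 ± 0.16 (Stmn4) to 0.19 ± 0.19 (Gng3), and edgeR adjusted p over the panel ran from 0.431 upwards. In the list of 69 other pan-neuronal genes 0 were called and the median was 0.027, with Nova2 (0.35 ± 0.12) of smallest p.

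Within wild type, the panel carried more footprints per mRNA than most genes. The log2 ratio of footprints to RNA, which is relative to the trimmed mean over genes and mixes translation with the counting biases of the 2 assays, was above 0 and passed an adjusted p of 0.05 for 30 of 35 genes, where 35.5% of all 13877 genes did. It was lower and passed for 2, where 36.3% of all genes did. With any 1 wild-type pool left out, 29 of the 35 passed in either direction, against 32 with all pools. Most genes passed in this comparison (71.8%), so sizes are given. The log2 ratio was above 0.5 for 26 of the 35 (25.6% of all genes) and above 1 for 7 (5.89% of all genes). The panel median was 0.86 against 0.013 over all genes. Per pool, the panel medians were 0.79, 0.85 and 0.91 in wild type and 0.83, 0.73 and 0.81 in the mutant. The other 69 pan-neuronal genes had a median of 0.59 with 49 higher and 7 lower. Among these, Dpysl2 had the smallest p (2.11 ± 0.088), and Rundc3a (-1.79 ± 0.11) lay at the other end. Medians were also above 0 in the other marker lists, at 1.11 (erythroid), 0.67 (mesenchyme and somites), 0.62 (endothelial) and 0.55 (macrophages). They were 0.50 in cycling cells, 0.47 in ganglia, 0.44 in neural crest and Schwann cells, 0.34 in progenitors and 0.21 in spinal neuron classes. A positive ratio was thus not particular to the panel.

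The ratios are given by role and per pool, pools 1, 2 and 3 in order, and differences between roles were not tested. Ncam1 had log2 ratios of 1.98, 1.97 and 2.06 in wild type and 2.34, 2.04 and 1.73 in the mutant, the highest of the panel. Cntn2, given above, and L1cam were close to each other. L1cam had log2 ratios of 0.85, 0.84 and 0.93 in wild type and 1.09, 0.97 and 0.63 in the mutant. The Ncam1 model used has a counted coding length that is not a multiple of 3, so it is incomplete. Among the microtubule genes all 10 passed as higher, Kif5c and Tagln3 narrowly (edgeR adjusted p = 0.0329 and 0.0334). These 2 did not pass when any 1 wild-type pool was left out. Nor did they with library sizes only, the whole coding sequence or a GC offset without the block. Dcx had log2 ratios of 1.50, 1.43 and 1.64 in wild type and 1.58, 1.39 and 1.42 in the mutant, next to Ncam1 in order. Map1b had log2 ratios of 1.01, 0.96 and 1.16 in wild type and 1.28, 0.90 and 0.81 in the mutant. The wild-type range of Dcx lay apart from those of all other genes of this role. Mapt had log2 ratios of 0.87, 0.92 and 1.15 in wild type and 1.22, 0.90 and 0.92 in the mutant. Map2 had log2 ratios of 0.79, 0.66 and 0.86 in wild type and 0.83, 0.53 and 0.52 in the mutant. Both overlapped in wild type with the ranges of Tubb3 or Stmn2 given above. Stmn4 had log2 ratios of 0.59, 0.75 and 0.91 in wild type and 0.52, 0.51 and 0.70 in the mutant. Stmn3 had log2 ratios of 0.62, 0.77 and 0.74 in wild type and 0.70, 0.65 and 0.72 in the mutant. Kif5c had log2 ratios of 0.23, 0.18 and 0.42 in wild type and 0.32, 0.16 and 0.22 in the mutant. Kif5c and Tagln3 were the lowest of the role. Tagln3 had log2 ratios of 0.081, 0.25 and 0.16 in wild type and 0.17, 0.19 and 0.31 in the mutant.

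Filament, growth cone, vesicle, signalling and turnover genes all had ratios above 0 that passed. Among filament genes, Ina is given above. Nefm had log2 ratios of 0.70, 0.91 and 1.05 in wild type and 1.24, 0.73 and 0.88 in the mutant. Nefl had log2 ratios of 0.37, 0.53 and 0.67 in wild type and 0.81, 0.52 and 0.44 in the mutant. Nefl was the lowest of the 3 filament genes in wild type. Dpysl3, a growth cone gene like Gap43 and Crmp1, had log2 ratios of 0.90, 1.01 and 1.02 in wild type and 1.14, 0.97 and 0.93 in the mutant. Scg3 had log2 ratios of 1.23, 1.27 and 1.41 in wild type and 1.24, 1.13 and 1.25 in the mutant, the highest vesicle gene. Syt1 had log2 ratios of 0.94, 1.19 and 1.13 in wild type and 1.02, 1.06 and 1.04 in the mutant. The wild-type pools of Scg3 lay above those of Syt1. Snap25 had log2 ratios of 0.87, 0.85 and 1.00 in wild type and 0.81, 0.66 and 0.89 in the mutant. Nsg1 had log2 ratios of 0.84, 0.96 and 0.92 in wild type and 0.90, 0.78 and 0.81 in the mutant. Nsg2 had log2 ratios of 0.83, 0.89 and 0.67 in wild type and 0.81, 0.76 and 0.90 in the mutant. In wild type the ranges of Snap25, Nsg1 and Nsg2 overlapped. Of the signalling and turnover pair, Uchl1 had log2 ratios of 1.08, 1.05 and 1.22 in wild type and 1.20, 0.94 and 1.18 in the mutant, and Gng3 had log2 ratios of 0.62, 0.78 and 0.49 in wild type and 0.54, 1.19 and 0.63 in the mutant, where mutant pool 2 stood apart.

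The median wild-type ratio was 0.55 in the RNA-binding proteins and -0.20 in the transcription factors. Elavl2 had log2 ratios of 0.70, 0.76 and 0.79 in wild type and 0.65, 0.68 and 0.67 in the mutant. Elavl4 had log2 ratios of 0.71, 0.65 and 0.80 in wild type and 0.75, 0.64 and 0.55 in the mutant. Elavl3 had log2 ratios of 0.36, 0.32 and 0.44 in wild type and 0.52, 0.32 and 0.32 in the mutant. The 3 Hu genes passed as higher, and Elavl3 lay below the other two in every wild-type pool. Rbfox3 had log2 ratios of -0.16, -0.29 and -0.0088 in wild type and -0.023, -0.36 and -0.091 in the mutant, and it did not pass (edgeR adjusted p = 0.228). All 4 transcription factors were below 0. Myt1l had log2 ratios of -1.43, -1.35 and -1.27 in wild type and -1.12, -1.17 and -1.41 in the mutant, the lowest of the panel (-1.36 ± 0.20, edgeR adjusted p = 2.04e-05). Myt1 had log2 ratios of -0.32, -0.28 and -0.19 in wild type and 0.079, -0.22 and -0.35 in the mutant, and it passed narrowly (-0.27 ± 0.11, edgeR adjusted p = 0.0378), but not when any 1 wild-type pool was left out (0.0831 to 0.136). Nhlh2, given above, did not pass (-0.11 ± 0.093). Nhlh1 had log2 ratios of -0.03, -0.038 and -0.30 in wild type and -0.15, -0.37 and 0.17 in the mutant, and did not pass either (-0.13 ± 0.12), its sign turning with a GC offset (0.060). Coding GC content was 66.4% in Nhlh2 and 65.2% in Nhlh1, the 2 highest of the panel, against medians of 55.5% over the panel and 51.6% over all genes.

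**Figure D4:**
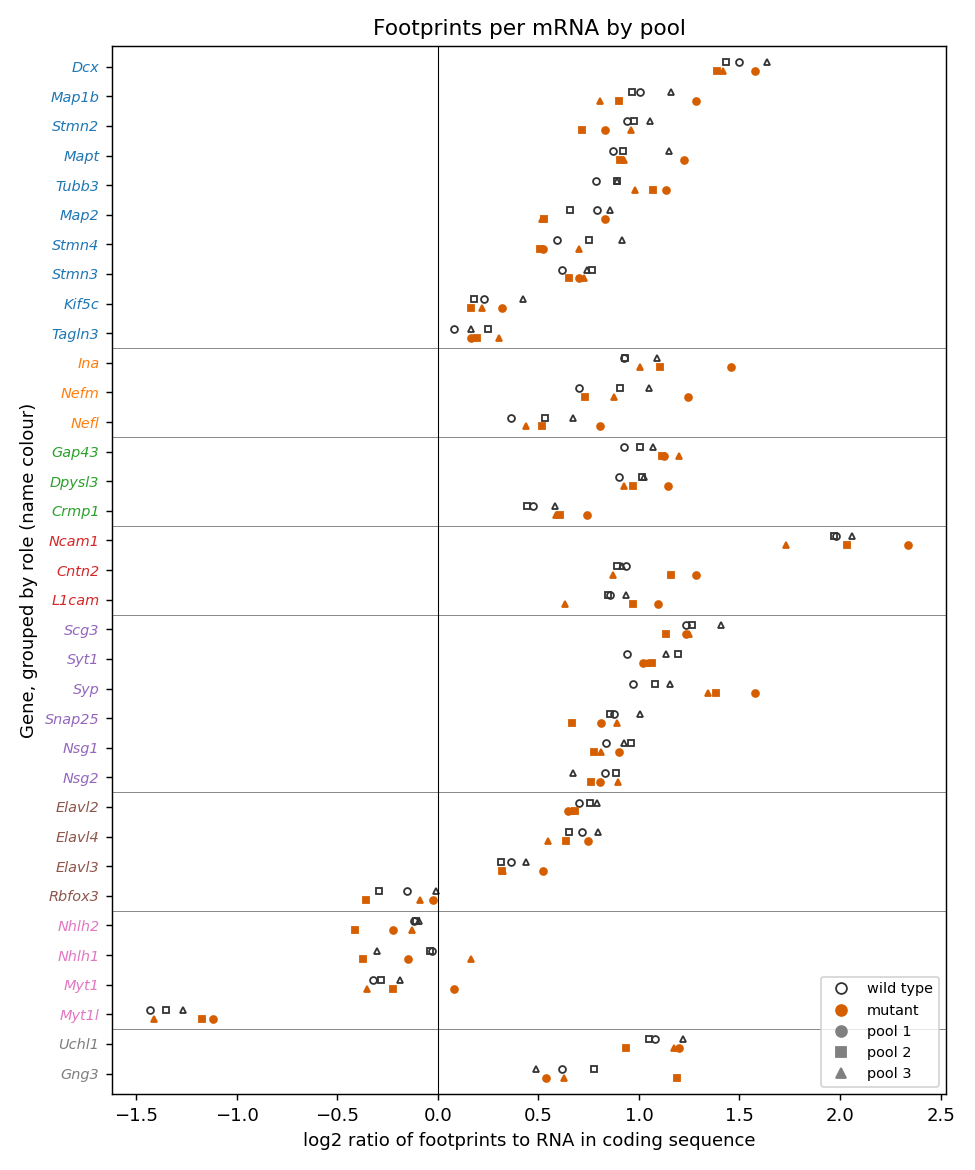
Log2 ratio of footprints to RNA in coding sequence (x axis) for each panel gene (rows, grouped by role), with 1 point per pool (open, wild type; filled, mutant; shape, pool number). Ncam1 and Dcx lie farthest right, the 4 transcription factors and Rbfox3 lie at or left of 0 in wild type, and mutant points scatter around wild-type points.

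Where footprints lay along the transcript was read from the counts in the 5′ UTR, coding sequence and 3′ UTR, as a share of their sum in each library. In 34 panel genes with a mean of at least 10 counts in the 5′ UTR, the median share there was 12.6% in wild type and 13.9% in the mutant, as in all 11324 such genes (12.6% and 14.1%). In RNA the median 5′ UTR share of the panel was 6.22% in wild type and 6.0% in the mutant, with all mutant pools below wild type for 2 genes (4.5% of all genes) and above for 1 (4.56% of all genes). Genes named for UTR shares were chosen after their values were seen. The 3 genes with the shortest coding sequences had the highest 5′ UTR shares of footprints. Nhlh2 had 67.7, 62.5 and 65.5% in wild-type pools and 61.3, 64.9 and 60.9% in mutant pools. Gng3 had 61.8, 60.4 and 62.9% in wild-type pools and 62.6, 59.2 and 60.6% in mutant pools. Nhlh1 had 56.1, 56.1 and 57.5% in wild-type pools and 58.2, 60.3 and 55.6% in mutant pools. In these 3 genes more footprints lay in the 5′ UTR than in the coding sequence, and the genotypes overlapped. Their 5′ UTRs hold 922, 257 and 458 bases against coding sequences of 408, 228 and 402, and in RNA their 5′ UTR shares were 16.4 ± 0.208%, 27.6 ± 0.157% and 19.4 ± 1.80% in wild type (SD, n = 3). At the other end were Map1b (0.236, 0.442 and 0.228% in wild-type pools and 0.822, 0.750 and 0.548% in mutant pools), Syp (0.536, 0.714 and 0.719% in wild-type pools and 0.210, 1.20 and 0.974% in mutant pools) and Dpysl3 (0.751, 0.896 and 0.713% in wild-type pools and 1.15, 0.860 and 1.02% in mutant pools). The lowest footprint count in the 5′ UTR of Syp was 2, so its shares are uncertain.

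Between genotypes, all mutant pools lay above all wild-type pools in 5′ UTR share for 6 of the 34 genes, where 24.6% of all genes did, and below for 1, where 3.69% did. The 6 were Stmn2, Kif5c, Tubb3, Map1b, Scg3 and Nsg1. Stmn2 had the widest gap in percentage points, with 20.9, 20.6 and 21.8% in wild-type pools and 29.3, 26.9 and 25.2% in mutant pools. Kif5c had 7.03, 6.96 and 6.56% in wild-type pools and 9.66, 8.11 and 9.16% in mutant pools. Tubb3 had 2.29, 2.63 and 1.99% in wild-type pools and 3.46, 2.73 and 3.37% in mutant pools. In Tubb3 the gap between the groups was narrow. Scg3 had 14.4, 13.2 and 13.1% in wild-type pools and 18.2, 15.2 and 16% in mutant pools. Nsg1 had 16.1, 14.6 and 14.6% in wild-type pools and 18.6, 16.2 and 17.9% in mutant pools. Gap43 was the gene with lower values, 7.98, 7.35 and 7.57% in wild-type pools and 5.93, 5.27 and 6.57% in mutant pools. With 3 pools against 3, an exact two-sided permutation test cannot reach a p under 0.10, so no test was made.

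In the 3′ UTR, footprint shares of 33 panel genes had a median of 1.28% in wild type and 1.64% in the mutant (1.35% and 1.89% over 7000 genes). By pool, the panel medians were 1.27, 1.36 and 1.35% in wild type and 1.18, 2.17 and 1.42% in the mutant. Mutant pool 2 stood apart: it was the highest of all 6 pools in 26 of the 33 genes, and in 4655 of the 7000. The median of mutant pool 1 was below all wild-type medians, and without mutant pool 2 the mutant median was 1.32%. All mutant pools lay above wild type for 7 genes, where 14.6% of all genes did, and below for 0, where 4.56% did. The 7 were Tagln3, Nefm, Dpysl3, Cntn2, Snap25, Nsg1 and Gng3. Gng3 had 2.09, 2.29 and 1.84% in wild-type pools and 2.54, 3.05 and 2.78% in mutant pools. Snap25 had 1.27, 1.36 and 1.21% in wild-type pools and 2.09, 1.90 and 1.84% in mutant pools. In Cntn2 mutant pool 2 carried most of the gap, at 0.798, 1.01 and 0.837% in wild-type pools and 1.03, 5.59 and 1.01% in mutant pools. Mutant pool 2 was also far above the other pools in Elavl3 (2.15, 2.19 and 2.26% in wild-type pools and 2.06, 11.2 and 2.09% in mutant pools) and Mapt (1.12, 1.46 and 0.941% in wild-type pools and 1.41, 7.35 and 2.08% in mutant pools). In Elavl3 and Mapt the mutant pools were not all above wild type. In RNA the median 3′ UTR share of the panel was 49.5% in wild type and 49.7% in the mutant, mutant pool 2 again being highest in 27 of 35 genes, with groups apart for Myt1l, whose share was 35, 34.3 and 34.6% in wild-type pools and 38.4, 42.0 and 37.2% in mutant pools, and for Rbfox3, at 25.9, 24.0 and 26.6% in wild-type pools and 23.5, 22.4 and 21.9% in mutant pools (all mutant pools above for 5.93% of all genes and below for 2.35%).

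**Figure D5:**
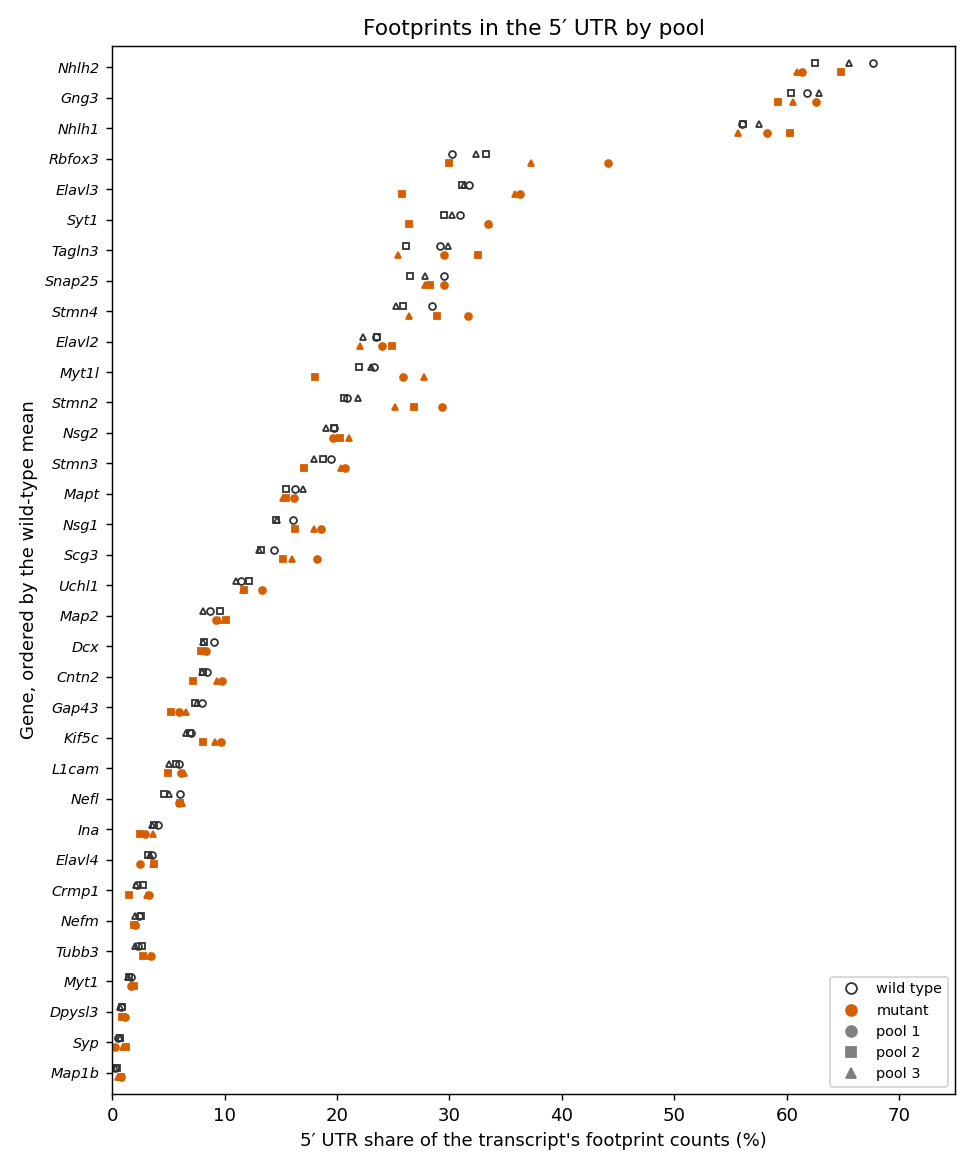
Share (%) of each transcript's footprint counts that lies in the 5′ UTR, for 34 panel genes ordered by the wild-type mean, with 1 point per pool (open, wild type; filled, mutant; shape, pool number). Nhlh2, Gng3 and Nhlh1 lie above 50% in all pools, and Stmn2 shows its 3 mutant pools right of wild type.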

How the data were processed

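Neural tube RNA and ribosome footprints were sequenced from 3 wild-type and 3 mutant pools. The authors deposited whole-number read counts per transcript for the 5′ UTR, coding sequence and 3′ UTR of each of 96 lane samples. Per the submitters' processing notes cutadapt, STAR, bedtools and build mm10 were used. Nothing in the sources used here says whether counting used strand or how multiply mapping reads were assigned.

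Lanes were summed to 12 libraries, without 4 truncated lanes of the first run of mutant footprint pool 1. Counts of the trimmed coding sequence were used, 1 transcript per gene. Rows without a gene held 0.303% of the counts. Tests were edgeR 4.0.16 quasi-likelihood fits in R 4.3.3 (limma 3.58.1) with TMM factors, genes kept by filterByExpr at a minimum count of 10 and a minimum total of 15. P-values were adjusted by Benjamini-Hochberg across every tested gene, with a threshold of 0.05. RNA and footprints were fitted separately, and efficiency as genotype by assay. The standard error is the log2 difference divided by the root of F. Ratios per pool used a prior of 0.5 CPM. Alternatives were other scalings, DESeq2 1.42.0, limma-voom, filters, lanes, counted part, transcript, single pools left out, a replicate block and a GC offset (lowess span 0.3). The edgeR fits were tested on simulated data: with 1.5-fold changes 87 of 100 genes were recovered in RNA and 76 of 100 in footprints. Gene positions and overlaps are from GENCODE on GRCm38, and tables were made in pandas 2.3.3 and NumPy 2.4.6 under Python 3.11.15, with figures from Matplotlib 3.10.9.

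RNA and footprint libraries of a pool come from the same cells, per the labels' protocols, and their deviations from the group means correlated over genes (r from 0.21 to 0.321 in wild type and from 0.275 to 0.574 in the mutant). Members and lists (other pan-neuronal genes, progenitors, cycling cells, spinal neuron classes, ganglia, neural crest, erythroid, endothelial, mesenchyme, macrophages) were chosen with earlier results of these data known. Values per pool were to be given for panel genes that passed in a comparison (the 8 of smallest p where fewer than 8 did), and for the 4 highest and 4 lowest in RNA level per length and in footprint ratio. Values per pool of other genes were added after they were seen. One gene of the list of other pan-neuronal genes is not reported here by name.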

Additional observations from a re-analysis of the deposited data

How the results depend on the processing

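The negative panel medians in RNA and footprints, the efficiency median near 0 and the positive wild-type ratio were stable in sign or size, while counts of calls were not, and the cause was not tested. In RNA, genes called (52 in the fit reported) numbered 394 with DESeq2, 87 with limma-voom, 462 with no filter, 22 with the whole coding sequence, 2 with a GC offset, 2 with a GC offset and the block together, 5 with all 12 libraries in one fit, and 1 to 1522 with single pools left out. The split of higher to lower calls was 30 to 22, against 130 to 264 with DESeq2. Panel genes called in RNA (1) numbered 13 with DESeq2, 2 with limma-voom, 12 with no filter, 0 with RLE factors, a minimum count of 30, the whole coding sequence, the longest transcript, a GC offset with or without the block, or the 12-library fit, and 0 to 27 with single pools left out. In footprints, genes called (34) numbered 820 with DESeq2, 130 with limma-voom, 243 with no filter, 53 with a minimum count of 30, 9 with all lanes, 59 with the whole coding sequence, 9 with a GC offset and the block, 509 in the 12-library fit, and 8 to 2333 with single pools left out. Panel genes called in footprints (0) numbered 14 with DESeq2, 3 with limma-voom, 5 with no filter, 6 in the 12-library fit and 0 to 24 with single pools left out. The extremes of 1522, 2333, 27 and 24 came without mutant pool 2. The footprint median ranged from -0.36 to -0.24 and the efficiency median from -0.064 to 0.048 with single pools left out, the last being lowest without mutant pool 1. Genes called in efficiency (0) numbered 20 with DESeq2, 113 with the replicate block, 3 with a GC offset and the block, and 0 to 1 with single pools left out. The wild-type ratio median was 0.76 with library sizes only, where the median of all genes was -0.084. The efficiency difference of Ina became -0.037 with a GC offset and -0.025 with the block added, and the ratio of Nhlh1 became 0.060 and 0.071. With the replicate number as a block between genotypes, 196 genes and 7 panel genes were called in RNA. The labels do not say whether same-numbered pools of the 2 genotypes share more than a number. Between them r ran from 0.049 to 0.105 in RNA and from -0.097 to -0.049 in footprints. Each RNA pool correlated best with its own number. Summing all lanes changes no RNA library. With 3 pools a group, smaller differences in footprints and efficiency were not detectable in the fits reported, which used no block.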
